A study of Mus musculus with 12 samples.

Results

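The genes described here are the enzymes that make cholesterol and fatty acids in mouse 4T1 cells, an established mammary carcinoma line, with the proteins that control them. They were 35 of the 31017 genes in each deposited count table, taken by gene symbol: 17 enzymes of sterol synthesis (the sterol arm), 13 enzymes of fatty acid synthesis (the fatty acid arm), and 5 regulators and carriers, namely Srebf1, Srebf2, Scap, Insig1 and Stard4. The 35 genes were present in both tables, had counts in all 12 libraries and passed the filter on low counts, as did 13763 genes in all. Polyadenylated RNA was sequenced in 6 groups of 2 libraries. Control cells were pools of clones that had received control guide RNAs, and c1 and c2 were each a single clone from cells nucleofected to knock out Etv4, an ETS transcription factor gene. Each of the 3 was kept both on culture plastic (2D) and inside gels of collagen I (3D), at either 1.2 mg/ml or a higher concentration, 2.4 mg/ml, without a record of which gel library had which. Gels were digested with collagenase before RNA extraction and the plastic cultures were not, and the 2 formats were deposited in separate count tables. Format, digestion and table therefore change together and cannot be told apart. Whether the replicates came from separate cultures is not given, so each p-value covers the spread among these libraries, which may be technical.

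Both pathways begin with cytosolic acetyl-CoA. The sterol arm condenses it through mevalonate to isoprenoids and squalene, closes squalene to lanosterol and then converts lanosterol to cholesterol. The fatty acid arm carboxylates it to malonyl-CoA, joins malonyl units to palmitate, and elongates and desaturates the product. Transcription of both arms is driven by the membrane-bound SREBP factors: Srebf2 encodes the form with a preference for sterol genes and Srebf1 the forms with a preference for fatty acid genes. Scap escorts SREBPs from the endoplasmic reticulum to the Golgi, where they are cleaved, and Insig1 holds Scap back when sterols are plentiful. Stard4 is a cytosolic sterol carrier.

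SREBPs act at promoters together with partner factors such as NF-Y, which binds CCAAT. Of the 35 genes, 28 matched a RefSeq promoter window of 250 bases before to 50 bases after the start site (GRCm38.p6). The 4 sequences here are the 250 bases before the start, 5′ to 3′ on the gene's strand, and are shown because they stand for a pathway's entry enzyme, a mevalonate enzyme that fell in 3D, the regulator that rose most in 3D and the central fatty acid enzyme. Capitals mark CCAAT or its reverse complement, and CACNCCA, a sterol element core, on either strand; in Fasn 2 CCAAT matches on opposite strands overlap.
Hmgcs1, chr13:119690101-119690350, plus strand: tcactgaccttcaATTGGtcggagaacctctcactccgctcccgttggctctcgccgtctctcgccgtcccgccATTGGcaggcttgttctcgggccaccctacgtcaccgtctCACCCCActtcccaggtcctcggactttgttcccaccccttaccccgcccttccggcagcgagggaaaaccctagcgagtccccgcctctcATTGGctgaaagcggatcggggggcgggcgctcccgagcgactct
Mvk, chr5:114444019-114444268, plus strand: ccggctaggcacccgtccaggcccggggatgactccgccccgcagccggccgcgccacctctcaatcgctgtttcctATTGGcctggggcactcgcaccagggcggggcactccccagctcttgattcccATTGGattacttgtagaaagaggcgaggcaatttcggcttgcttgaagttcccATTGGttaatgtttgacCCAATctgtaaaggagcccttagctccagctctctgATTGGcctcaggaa
Srebf2, chr15:82147019-82147268, plus strand: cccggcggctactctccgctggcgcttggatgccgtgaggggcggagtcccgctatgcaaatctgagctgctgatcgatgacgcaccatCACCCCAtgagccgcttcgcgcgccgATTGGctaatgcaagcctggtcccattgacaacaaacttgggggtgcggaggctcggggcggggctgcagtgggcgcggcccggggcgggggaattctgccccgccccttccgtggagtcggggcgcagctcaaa
Fasn, chr11:120824548-120824797, minus strand: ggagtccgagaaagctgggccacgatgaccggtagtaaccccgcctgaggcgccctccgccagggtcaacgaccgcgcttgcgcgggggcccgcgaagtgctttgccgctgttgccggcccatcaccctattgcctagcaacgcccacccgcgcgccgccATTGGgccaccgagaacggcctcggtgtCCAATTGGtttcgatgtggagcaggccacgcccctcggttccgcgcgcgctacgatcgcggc
These stretches held 3 CCAAT matches in Hmgcs1, 5 in Mvk, 1 in Srebf2 and 3 in Fasn, and CACNCCA once in Hmgcs1 and once in Srebf2. Over whole windows, CCAAT was found in 14 of 14 sterol genes, 7 of 10 fatty acid genes and 3 of 4 regulators, against 41.1% of 27025 genes with windows of the same length. CACNCCA was found in 2 of 14, 1 of 10 and 2 of 4, against 20.6%. The E-box CACGTG was found in 3 of 14, 1 of 10 and 2 of 4, against 8.1%, and the ETS core CCGGAA in 3 of 14, 1 of 10 and 1 of 4, against 16.7%. A match describes letters in a window and not a bound site.

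Libraries held 12.28 to 18.7 M counts in 2D and 26.53 to 33.21 M in 3D, and the 35 genes took 0.66 to 0.88% of them. All 3D libraries stood apart in composition: Gm26917, a predicted gene, took 10.89 to 14.95% of counts in 3D and 1.75 to 2.03% in 2D, and mitochondrial genes 1.45 to 1.76% and 0.31 to 0.51%. Epithelial markers were high in sum throughout (6 of 6 tested, summed CPM 3465 to 4674 in 2D and 2766 to 3250.1 in 3D), with most from Krt8, Krt18 and Krt7. Krt14 was lower in both clones than in control. It was at 78.1, 11.2 and 41.2 CPM in control, c1 and c2 in 2D and 35.6, 15.2 and 7.72 in 3D. Fibroblast markers summed to 4.11 to 7.39 CPM in 2D and 19.9 to 23.8 in 3D, with 1 of 6 tested (Pdgfra) and Pdgfrb and Lum at 0. Leukocyte markers summed to 1.75 to 5.40 and 7.77 to 11.6 (2 of 6 tested, Itgam at 0), and the adipocyte list stayed at or below 0.483 with none of 6 tested and Lep at 0. The part of these shifts in the 3D results was not tested, and in bulk RNA fewer cells of a type and less RNA per cell cannot be told apart. The targeted gene Etv4 was measured at 78.1 and 76 CPM in control, 49.8 and 49.2 in c1 and 49.3 and 46 in c2 in 2D, and at 94.7 and 99.4, 69.9 and 69.1 and 86.6 and 91.5 in 3D, so its transcript remained in both clones. Etv4 was at 91.7% of control in c2 in 3D (log2 -0.12 ± 0.059, adjusted p = 0.116), a comparison that did not pass the test. Counts per gene do not show an edited allele, so the target's RNA gives no check of the edit there, and "knockout" below follows the labels.

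Levels differed widely among the genes, compared here as TMM-scaled CPM per kb of exon in control cells in 2D. Scd2, a stearoyl-CoA desaturase that makes monounsaturated fatty acids, was first at 358 CPM per kb. Acly, which splits citrate into acetyl-CoA, came next at 129.6, followed by Fasn, the fatty acid synthase, at 127. The sensor Insig1 (97.2 CPM per kb) and the entry enzyme of the sterol arm, Hmgcs1 (82.8) came after them. The lowest was Acacb, an acetyl-CoA carboxylase of the mitochondrial membrane, at 0.215 CPM per kb, while its cytosolic counterpart Acaca stood at 16.2. Srebf2 was in place 29 of 35 in 2D and place 10 in 3D, and Mvk moved from place 16 to 27.

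In control cells, growth in collagen came with higher RNA of Srebf2 and Dhcr7 and lower RNA of most other sterol enzymes. Of the sterol arm, 1 gene was higher and 12 were lower in 3D, against 41.7% and 35.6% of all genes tested (adjusted p under 0.05, by edgeR's quasi-likelihood test, Benjamini-Hochberg adjusted over all genes). The fatty acid arm was split, with 4 higher and 6 lower, and of the 5 regulators and carriers 3 were higher and 1 lower. The median log2 change was -0.36 over the sterol arm and -0.10 over the fatty acid arm, beside 0.10 over all genes.

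Srebf2 was measured at 67.7 and 73.9 CPM in the control libraries in 2D and at 329 and 340.3 in 3D. Its log2 change was 2.24 ± 0.06 (SE, adjusted p = 1.06e-21), the largest rise among the 35 genes, and it was 2.15 in c1 and 2.20 in c2, which share no library with this comparison. Both 3D libraries of every line lay far above both 2D libraries of that line. Srebf1 behaved differently: it was measured at 188 and 174 CPM in 2D and 183 and 195 in 3D in control, with a log2 change of 0.061 ± 0.061 (adjusted p = 0.365). The 2D and 3D control libraries of Srebf1 overlapped. Stard4 rose from 33 and 34.8 to 90.5 and 93.1 CPM (log2 1.44 ± 0.08, adjusted p = 5.84e-15).

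In control cells the RNA of Scap and Insig1 changed less between formats than that of Srebf2 and Stard4. Scap was measured at 147 and 142 CPM in 2D and 109 and 110.0 in 3D in control, a fall (log2 -0.40 ± 0.061, adjusted p = 1.58e-06), and it was also lower in 3D in c1 (-0.26) and c2 (-0.42). Insig1 was measured at 307 and 294 CPM in 2D and 329 and 336 in 3D in control (log2 0.14 ± 0.054, adjusted p = 0.0165). This small rise did not pass the threshold without replicate 2 of the 2D control (adjusted p = 0.0848) or replicate 2 of the 3D control (0.0569). Insig1 was lower in 3D in c1, at -0.24 ± 0.053 (adjusted p = 0.000199), and higher in c2, at 0.41 ± 0.053 (adjusted p = 8.86e-08), so its direction differed between the lines.

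**Figure D1:**
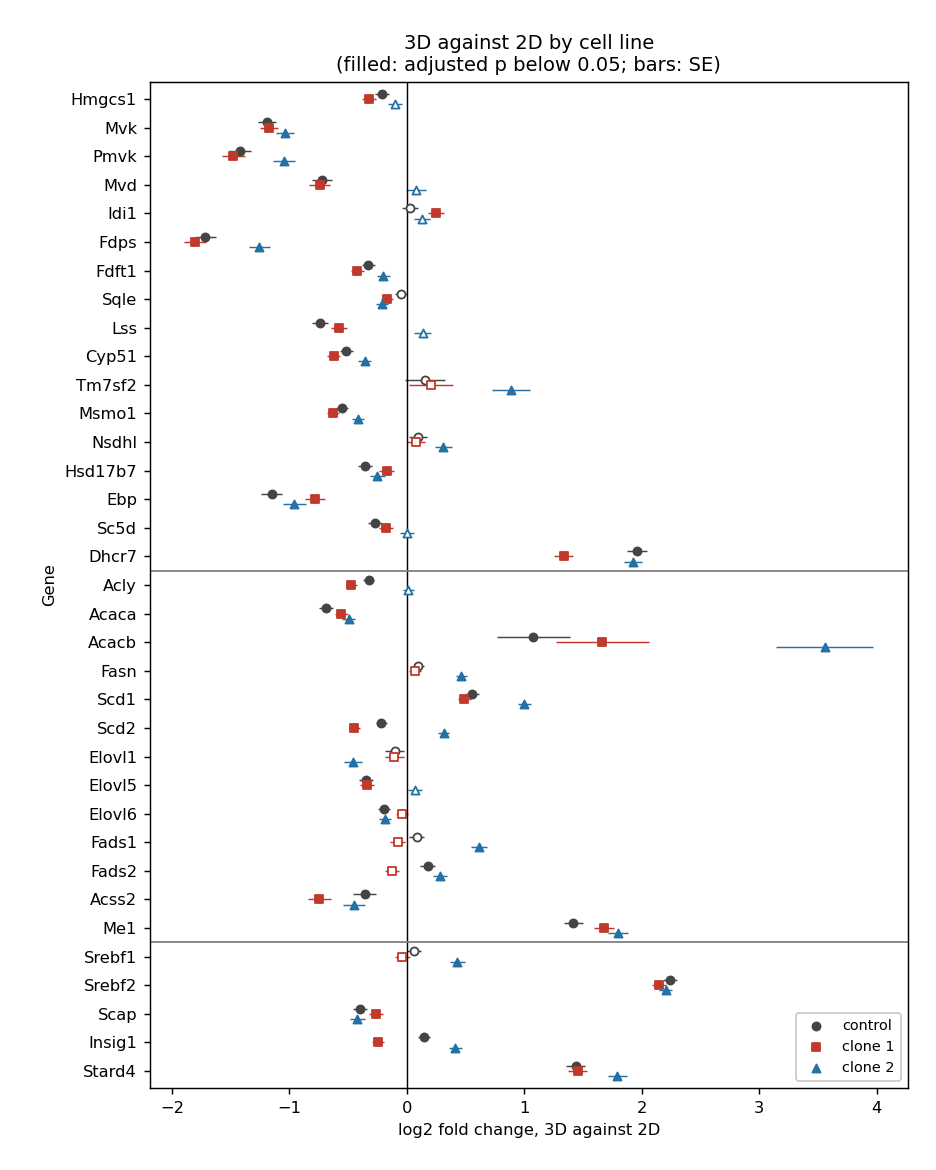
Log2 fold change of 3D against 2D (x axis, bars are the SE) for each of the 35 genes (y axis, grouped by arm) in control, c1 and c2, 2 libraries per group. Srebf2 lies at 2.24, 2.15 and 2.20 and most sterol enzymes lie left of 0 in each line.

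Among sterol enzymes, Mvk, Pmvk, Mvd and Fdps of the mevalonate and isoprenoid steps fell. Mvk, mevalonate kinase, was measured at 90.7 and 74.7 CPM in 2D and 36 and 36.4 in 3D (log2 -1.19 ± 0.077, adjusted p = 1.28e-13). Pmvk, which adds the next phosphate, was measured at 67.2 and 61.3 and 23.4 and 24.5 CPM (log2 -1.42 ± 0.094, adjusted p = 2.02e-13). For both genes the 3D libraries lay below the 2D libraries with no overlap, at 43.8% and 37.3% of the 2D level. Fdps, which builds farnesyl diphosphate, was measured at 74.8 and 65.3 CPM in 2D and 20.7 and 21.9 in 3D (log2 -1.72 ± 0.088, adjusted p = 8.37e-16), the largest fall of the 35. Fdps is uncertain, since 26.7% of its exon bases overlap Gm43738 on the same strand and 4 other annotated genes hold near-identical copies of it. The decarboxylase Mvd fell, at -0.72 ± 0.085 and did not follow the isomerase Idi1, at 0.026 ± 0.069 (adjusted p = 0.738).

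After squalene the changes were mixed. Ebp, a sterol isomerase on the X chromosome, fell from 40.5 and 37.8 to 17.7 and 17.5 CPM (log2 -1.15 ± 0.092, adjusted p = 1.00e-11). Lss, which closes squalene epoxide to lanosterol, fell, at -0.74 ± 0.07, Msmo1 and Cyp51, which strip methyl groups from lanosterol, at -0.55 ± 0.049 and -0.52 ± 0.057, and Hsd17b7 at -0.36 ± 0.06. The exception was Dhcr7, the reductase of the last step to cholesterol, at 18.1 and 21.1 CPM in 2D and 77.1 and 75.7 in 3D (log2 1.96 ± 0.084, adjusted p = 1.75e-17). Every 3D library of Dhcr7 was above every 2D library of the same line, and the change was 1.34 in c1 and 1.93 in c2. Sqle, Tm7sf2 and Nsdhl did not pass the test in control, with values of -0.047, 0.15 and 0.098. Hmgcs1 was measured at 391 and 369 CPM in 2D and 325 and 331 in 3D (log2 -0.21 ± 0.06, adjusted p = 0.00243, and 0.0546 without replicate 1 of the 3D control).

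In the fatty acid arm the enzyme that supplies NADPH rose most clearly. Me1, the cytosolic malic enzyme, went from 26.8 and 28.1 CPM in 2D to 74.1 and 72.9 in 3D (log2 1.42 ± 0.081, adjusted p = 8.28e-15). Scd1, a stearoyl-CoA desaturase, rose from 114 and 113 to 168 and 166 CPM (log2 0.56 ± 0.056, adjusted p = 1.29e-09), while its neighbour on chromosome 19, Scd2, fell from 1942 and 1968 to 1674 and 1685 (log2 -0.22 ± 0.047). The 2 desaturase genes share stretches of up to 95.5% identity, so reads could have been split between them. Acaca, the carboxylase of the committed step, fell from 260.2 and 293 to 172 and 171 CPM (log2 -0.69 ± 0.056, adjusted p = 1.74e-11), and Acly fell, at -0.33 ± 0.048. Fasn was at 1354 and 1433 and 1502 and 1478 CPM and did not pass the test (log2 0.097 ± 0.048, adjusted p = 0.0713). Acss2, which activates acetate, had 20.7 and 18.5 CPM in control in 3D and fell, at -0.36 ± 0.099 (adjusted p = 0.00195, and 0.0622 without replicate 2 of the 3D control).

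Acacb was scarce, with 15 and 46 counts in the 2D control libraries and 123 and 121 in 3D. Its log2 change was 1.07 ± 0.31 (adjusted p = 0.00302), and without replicate 1 of the 2D control it was 0.51 (adjusted p = 0.122). The 2 control replicates in 2D lay far apart.

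The comparisons of 3D with 2D in control, c1 and c2 use separate libraries. Called lower in all 3 were 8 of 17 sterol enzymes (47.1%) and 2 of 13 fatty acid enzymes (15.4%), against 29.3% of all genes tested. Called higher in all 3 were 1 sterol enzyme (5.88%) and 3 fatty acid enzymes (23.1%), against 32.7% of all genes. The 8 sterol enzymes were Mvk, Pmvk, Fdps, Fdft1, Cyp51, Msmo1, Hsd17b7 and Ebp, and the fatty acid enzymes were Acaca and Acss2 lower and Acacb, Scd1 and Me1 higher. Scd2 and Insig1 were called in opposite directions in different lines, as were 2.01% of all genes. The 35 genes held 27 calls in control (77.2% of all genes were called), 27 in c1 (75.1%), 28 in c2 (79.5%) and 32 in the mean of both clones (83.3%). In c1 the sterol arm had 2 higher and 13 lower (median -0.42, all genes 39.8% higher and 35.3% lower) and the fatty acid arm 3 and 5 (median -0.11). In c2 the sterol arm had 3 higher and 9 lower (median -0.20, all genes 42.5% and 37%) and the fatty acid arm 7 and 4 (median 0.28). In the mean of both clones the sterol arm had 4 higher and 12 lower and the fatty acid arm 5 and 6, against 44.9% and 38.5% of all genes.

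The clones were then compared with control cells grown in the same format, which asks how the genes stood in cells targeted at Etv4. In c1 the sterol arm was split and the fatty acid arm was mostly lower, in both formats. In 2D, 7 sterol enzymes were higher and 6 lower, and 2 fatty acid enzymes were higher and 8 lower, against 19.8% higher and 20% lower over all genes. In 3D the counts were 6 and 5 for sterol enzymes and 1 and 9 for fatty acid enzymes, against 22% and 23% of all genes. The median log2 change of the sterol arm was 0.11 in 2D and 0.033 in 3D, and that of the fatty acid arm was -0.20 and -0.19, with all genes at 0 in each. The 2 formats share no library here. Called lower in both were 5 of 17 sterol enzymes (29.4%) and 7 of 13 fatty acid enzymes (53.8%), against 14.1% of all genes, and called higher in both were 5 (29.4%) and 1 (7.69%), against 13.3%.

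Fasn was measured at 1354 and 1433 CPM in control and 931 and 926 in c1 in 2D, and at 1502 and 1478 and 982 and 965 in 3D. Its log2 change was -0.59 ± 0.049 in 2D (adjusted p = 5.54e-10), with -0.61 ± 0.048 in 3D (adjusted p = 9.46e-11), with no overlap between groups. Acly was measured at 692 and 675 CPM in control and 530.0 and 527 in c1 in 2D, and at 538 and 553 and 387 and 375 in 3D, with log2 changes of -0.37 ± 0.048 and -0.52 ± 0.048. Srebf1 was measured at 122 and 118 CPM in c1 in 2D and 110.5 and 123 in 3D, below all control libraries of either format. The log2 change of Srebf1 was -0.60 ± 0.065 in 2D (adjusted p = 4.62e-08), with -0.69 ± 0.061 in 3D (adjusted p = 6.15e-10).

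These 3 genes and Acaca all lie on chromosome 11, at chr11:120805846-120824547 (Fasn), chr11:100476353-100528000 (Acly), chr11:60199089-60222581 (Srebf1) and chr11:84129672-84401651 (Acaca) in mm10, as does Etv4. In c1 the median over all tested genes of chromosome 11 was -0.38 (log2) on plastic and -0.43 in gels. With each chromosome centred on its own median, Fasn was at -0.22 in 2D (adjusted p = 0.00122), with -0.18 in 3D (0.00395), and Srebf1 at -0.23 (0.00883) and -0.27 (0.00147). Acly then did not pass the test, at -0.005 and -0.09. Acaca, at -0.28 ± 0.057 in 2D and -0.15 ± 0.056 in 3D without centring, turned to 0.081 and 0.28 (adjusted p = 0.000592 in 3D). On that scale the fatty acid arm had 2 enzymes higher and 5 lower in 2D, where 30.7% of all genes were called. In 3D it had 3 higher and 6 lower, where 34.2% of all genes were called.

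**Figure D2:**
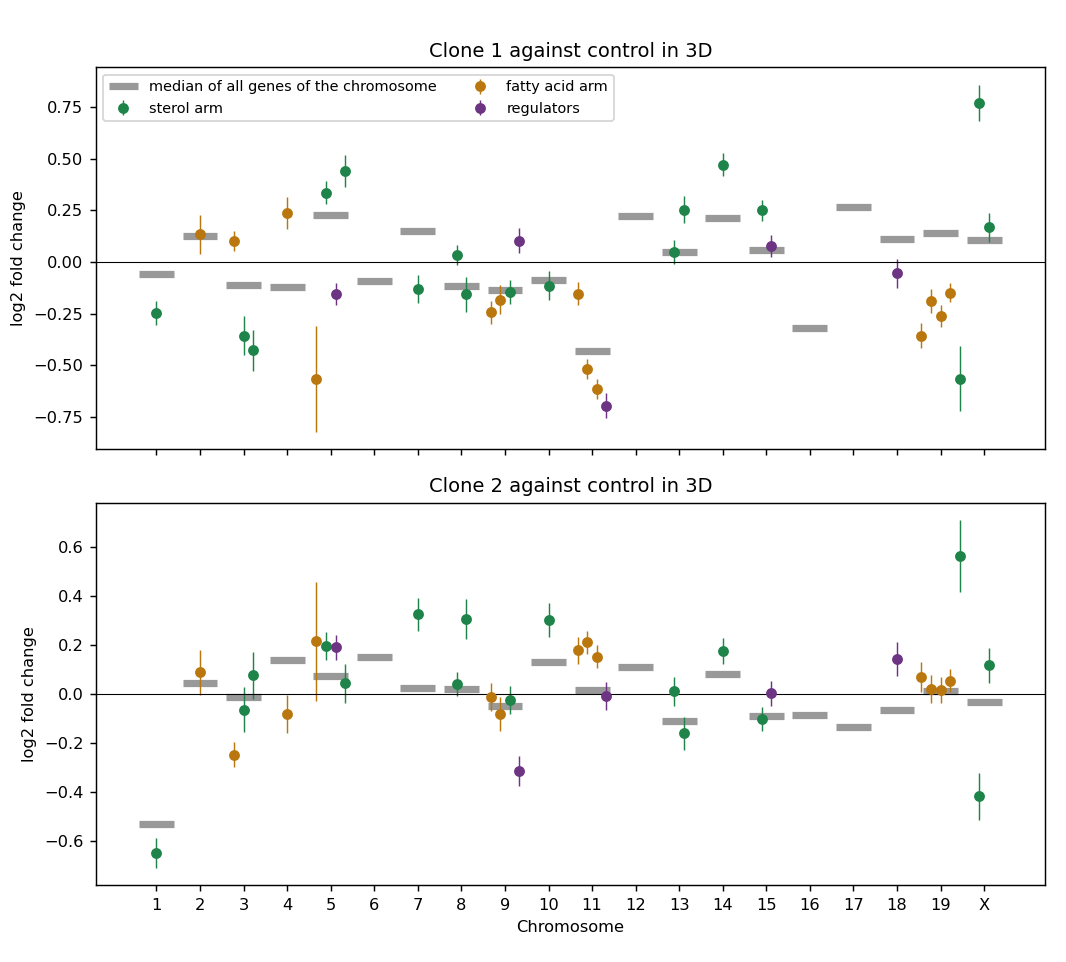
Median log2 change of all tested genes on each chromosome (line or bar) and the 35 genes on it (points), each clone against control in 3D, with the chromosome on the x axis and log2 fold change on the y axis. In c1, chromosome 11 lies at -0.43 with Fasn, Acly, Acaca and Srebf1 on it, and in c2, chromosome 1 lies at -0.53 with Hsd17b7 on it.

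Several fatty acid enzymes away from chromosome 11 were also lower in c1, but Elovl1 was higher in both formats. Its log2 change was 0.24 in each (adjusted p = 0.027 in 2D and 0.0129 in 3D), and 0.294 and 0.355 with chromosomes centred. In 2D, Scd2, Elovl6 and Fads2 did not pass, at 0.078, -0.052 and 0.114. Elovl6 was called higher in 3D with chromosomes centred (0.224, adjusted p = 0.000836). Scd1 was measured at 168 and 166 CPM in control and 144 and 135 in c1 in 3D (log2 -0.26 ± 0.054, adjusted p = 0.000263), and its change in 2D was -0.20 ± 0.06. Fads1, a desaturase of polyunsaturated fatty acids, was measured at 91.3 and 94.2 CPM in control and 74.9 and 70.2 in c1 in 3D (log2 -0.36 ± 0.062, adjusted p = 3.55e-05). Me1 was measured at 26.8 and 28.1 CPM in control and 21.6 and 18.7 in c1 in 2D (log2 -0.44 ± 0.098, adjusted p = 0.000674). In 3D Me1 was at -0.182 (adjusted p = 0.0354), and at -0.055 (adjusted p = 0.593) with chromosomes centred. The groups of Scd1, Fads1 and Me1 did not overlap in those comparisons. The elongase Elovl5 was at 100.4 and 108 CPM in c1 in 2D, and at 97.5 and 97.6 in control and 79.6 and 85 in c1 in 3D. It changed by -0.25 ± 0.061 in 2D and -0.24 ± 0.057 in 3D, and with chromosomes centred it did not pass, at -0.12 (adjusted p = 0.14) and -0.12 (adjusted p = 0.112). Scd1 was then at -0.32 in 2D and -0.40 in 3D. Acss2 rose in 2D, from 25.2 and 25.1 to 35.2 and 36.9 CPM (log2 0.52 ± 0.099, adjusted p = 0.000139), and was at 0.13 ± 0.093 in 3D (adjusted p = 0.257).

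Sterol enzymes in c1 moved in opposite directions within the pathway. Fdft1, squalene synthase, was measured at 198 and 177 CPM in control and 282 and 274 in c1 in 2D, and at 149 and 150.2 and 208 and 206 in 3D. It rose by log2 0.57 ± 0.056 in 2D (adjusted p = 9.13e-09), with 0.47 ± 0.054 in 3D (adjusted p = 7.10e-08). Ebp rose from 40.5 and 37.8 to 48.8 and 54.6 CPM in 2D (log2 0.40 ± 0.089) and from 17.7 and 17.5 to 30.0 and 30.1 in 3D (log2 0.77 ± 0.089, adjusted p = 7.56e-08). The isomerase that fell in 3D in every line was higher in c1 than in control in each format. Mvk, at 49.1 and 49.2 CPM in c1 in 3D, rose by 0.42 ± 0.075 in 2D and 0.44 ± 0.076 in 3D, and Sqle, squalene epoxidase, by 0.38 ± 0.052 and 0.25 ± 0.05. With chromosomes centred, Mvk was at 0.23 and 0.21, Fdft1 at 0.26 in 3D and Ebp at 0.27 in 2D, all still called. Cyp51 was measured at 349 and 368 CPM in control and 523 and 452 in c1 in 2D, and at 249.9 and 251 and 311 and 322 in 3D. The demethylase Cyp51 rose by 0.44 ± 0.057 and 0.34 ± 0.057, though with chromosomes centred it was at 0.25 in 2D and 0.10 in 3D (adjusted p = 0.161).

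Other sterol enzymes were lower in c1. Hsd17b7, a ketosteroid reductase, was measured at 104 and 110.2 CPM in control and 82.5 and 76.7 in c1 in 2D (log2 -0.43 ± 0.064, adjusted p = 5.24e-06), and it changed by -0.24 ± 0.059 in 3D. Pmvk had 51.6 and 47.6 CPM in c1 in 2D and 18.3 and 17.4 in 3D. It fell, at -0.37 ± 0.094 in 2D and -0.43 ± 0.099 in 3D, in contrast to Mvk, the kinase of the step before it. Tm7sf2, a sterol reductase with 168 and 141 counts in the 2D control libraries and 72 and 112 in those of c1, was at -0.62 ± 0.20 in 2D. In 3D it had 310 and 344 counts in control, 199 and 260 in c1 and 488 and 490 in c2. That call did not pass without replicate 1 of control (adjusted p = 0.117) or replicate 1 of c1 (-0.24, adjusted p = 0.387) in 2D. Dhcr7 rose in c1 in 2D by 0.49 ± 0.098 (adjusted p = 0.00021) and was at -0.13 ± 0.068 in 3D (adjusted p = 0.121), where it was called lower with chromosomes centred (-0.27, adjusted p = 0.0033). In c1, 26 of the 35 genes were called in 2D (over all genes 39.8% were) and 23 in 3D (45.1%). Some of these calls were lost when a single library was left out. The share of all genes that lost theirs is not given here, so the loss does not set these genes apart.

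In c2 more enzymes of each arm were lower than higher in 2D, and more were higher than lower in 3D. In 2D, 1 sterol enzyme was higher and 8 lower, and 1 fatty acid enzyme was higher and 9 lower, against 18.9% higher and 15% lower over all genes. In 3D, 6 sterol enzymes were higher and 2 lower, and 3 fatty acid enzymes were higher and 1 lower, against 11.9% and 17.4%. The medians of the sterol and fatty acid arms were -0.17 and -0.25 in 2D and 0.043 and 0.054 in 3D, beside 0.015 and 0.004 over all genes. Between these separate sets of libraries, Mvd, Lss, Acly and Fasn were called in opposite directions (4 of 35 genes, 11.4%, against 2.9% of all genes). With chromosomes centred, Mvd alone of the 4 was called in both: Acly was at -0.036 (adjusted p = 0.603) and Fasn at -0.12 (adjusted p = 0.0576) in 2D, and Lss at 0.17 (adjusted p = 0.0857) in 3D. On that scale 0 sterol enzymes were higher and 8 lower in 2D, and 0 and 7 fatty acid enzymes, where 27% of all genes were called. In 3D the counts were 3 and 1 for sterol enzymes and 3 and 2 for fatty acid enzymes, where 23.3% of all genes were called. Without centring, Dhcr7 was called higher in both formats (1 of 35 genes, 2.86%, against 4.79% of all genes). Hsd17b7, Ebp, Elovl6 and Scap were called lower in both (4 of 35 genes, 11.4%, against 6.76%).

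Lss was measured at 222 and 206 CPM in control and 154 and 133 in c2 in 2D, and at 128 and 129 and 162 and 154 in 3D. Its log2 change was -0.57 ± 0.071 in 2D (adjusted p = 8.47e-07), with 0.30 ± 0.069 in 3D (adjusted p = 0.0012, and 0.0857 with chromosomes centred). Mvd was measured at 56.1 and 53.5 and 42.1 and 35.7 CPM in 2D, and at 31.7 and 34.9 and 40.4 and 42 in 3D. Each gene was thus below control on plastic and above it in collagen, without overlap. The change of Mvd was -0.49 ± 0.088 in 2D (adjusted p = 0.000104), with 0.31 ± 0.082 in 3D (adjusted p = 0.00545), and the 3D value did not pass without replicate 1 of control (0.24, adjusted p = 0.123) or replicate 2 of c2 (0.28, adjusted p = 0.0739). Fdps had 50.2 and 47.2 CPM in c2 in 2D and 19.9 and 20.9 in 3D, and 54.8 and 61.5 and 17.1 and 16.2 in c1. In c2 it was lower in 2D, at -0.52 ± 0.085 and at -0.064 ± 0.092 in 3D (adjusted p = 0.655).

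The sterol enzymes Ebp, Hsd17b7 and Dhcr7 differed from control in the same direction in both formats in c2. Ebp was measured at 40.5 and 37.8 CPM in control and 26.5 and 24.7 in c2 in 2D (log2 -0.61 ± 0.093, adjusted p = 1.43e-05), and at 17.7 and 17.5 and 13.4 and 12.9 in 3D (log2 -0.42 ± 0.096, adjusted p = 0.00147). The direction is the opposite of that in c1. Hsd17b7 was measured at 64.9 and 61.9 CPM in c2 in 2D and 54.3 and 52.5 in 3D, against 104 and 110.2 and 83.7 and 83.9 in control (log2 -0.76 ± 0.064 and -0.65 ± 0.061). Hsd17b7 lies on chromosome 1 (chr1:169949535-169969241), whose tested genes had a median of -0.29 in c2 in 2D and -0.53 in 3D. With chromosomes centred it was at -0.47 in 2D (adjusted p = 1.06e-05), with -0.12 in 3D (adjusted p = 0.139). Dhcr7 had 25.2 and 25 CPM in c2 in 2D and 100.1 and 91.2 in 3D. It was higher by 0.36 ± 0.096 in 2D and 0.33 ± 0.067 in 3D, the 2D value with an adjusted p of 0.00516, of 0.072 with chromosomes centred (0.23), and of 0.0969 without replicate 1 of control.

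Several desaturases and elongases fell in c2 in 2D, but the elongase Elovl1 rose (0.27 ± 0.083, adjusted p = 0.0133) and the desaturase Fads2 did not pass (-0.084 ± 0.062, adjusted p = 0.317). Scd2 was measured at 1942 and 1968 CPM in control and 1426 and 1380.0 in c2 (log2 -0.48 ± 0.048, adjusted p = 2.82e-08). Scd1 fell from 114 and 113 to 87.3 and 81.3 CPM (log2 -0.43 ± 0.06), Fads1 from 90.6 and 84.2 to 65.8 and 61.2 (log2 -0.46 ± 0.068) and Elovl5 from 122 and 127 to 91.3 and 93 (log2 -0.43 ± 0.06). In 3D none of these 4 genes passed the test, with Scd2 at 0.054, Scd1 at 0.017, Fads1 at 0.071 and Elovl5 at -0.011. Me1, at 19 and 21.1 CPM in c2 in 2D, fell, at -0.46 ± 0.095 in 2D and was at -0.082 ± 0.07 in 3D. Elovl6, the elongase of palmitate, was at 267 and 264 CPM in control and 229 and 219 in c2 in 3D, and fell in both formats, at -0.25 ± 0.051 and -0.25 ± 0.05. Acacb had 13 and 12 counts in c1 and 12 and 2 counts in c2 in 2D, and its log2 change in c2 of -2.27 ± 0.52 was -1.28 (adjusted p = 0.119) without replicate 2 of control.

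The enzymes of the main fatty acid route were slightly higher in c2 in 3D. Acly was measured at 630.4 and 634 CPM in c2, against 538 and 553 in control (log2 0.21 ± 0.047, adjusted p = 0.00106), while in 2D it was at -0.13 ± 0.048. Fasn was measured at 1652 and 1661 CPM in c2, against 1502 and 1478 in control (log2 0.15 ± 0.048, adjusted p = 0.017), and at 1216 and 1187 in 2D, against 1354 and 1433 (log2 -0.21 ± 0.049). Acaca, with 198 and 190.5 CPM in c2, was at 0.18 ± 0.056 in 3D. The 3D calls of Fasn and Acaca were small and did not pass when any 1 of the 4 control and c2 libraries in 3D was left out (adjusted p 0.0719 to 0.129 for Fasn and 0.0537 to 0.173 for Acaca). In c2, 21 of the 35 genes were called in 2D (over all genes 33.9% were) and 14 in 3D (29.2%). Some of these calls were lost when a single library was left out. The share of all genes that lost theirs is not given here, so the loss does not set these genes apart.

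Of the regulators in c2, Srebf1 was measured at 145 and 133 CPM in 2D and 184 and 192 in 3D. It was below control in 2D (log2 -0.38 ± 0.063, adjusted p = 4.49e-05) and at -0.008 ± 0.059 in 3D (adjusted p = 0.947). Srebf2 did not pass the test in c2, with 73.8 and 71.8 CPM in 2D and 335 and 336 in 3D (log2 0.041 ± 0.065 and 0.002 ± 0.053). In c1 Srebf2 was measured at 83.7 and 75.3 and 349 and 357 CPM (log2 0.17 ± 0.065, adjusted p = 0.0412, and 0.078 ± 0.053), and the 2D call was lost on leaving out replicate 1 of control (0.301) or replicate 1 of c1 (0.417) in 2D, and with chromosomes centred (0.0633). Scap fell in c2 in both formats, to 124 and 111 CPM in 2D (log2 -0.29 ± 0.062) and 89.8 and 86.2 in 3D (log2 -0.32 ± 0.06, adjusted p = 0.000206). In c1 Scap was measured at 134 and 148 CPM in 2D and 115 and 119.9 in 3D. It was at -0.034 and 0.10 and passed in neither format, but was called higher in 3D with chromosomes centred (0.23, adjusted p = 0.00375). Insig1 was measured at 372 and 335 CPM in c1 and 284 and 285 in c2 in 2D, and at 291 and 306 and 381 and 378 in 3D. Stard4 had 34.2 and 30.0 CPM in c1 and 31.9 and 26.2 in c2 in 2D, and 90.8 and 86 and 98.6 and 104 in 3D. It passed in no comparison of a clone with control, with log2 changes from -0.21 in c2 in 2D to 0.14 in c2 in 3D, the latter at 0.22 (adjusted p = 0.0273) with chromosomes centred.

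**Figure D3:**
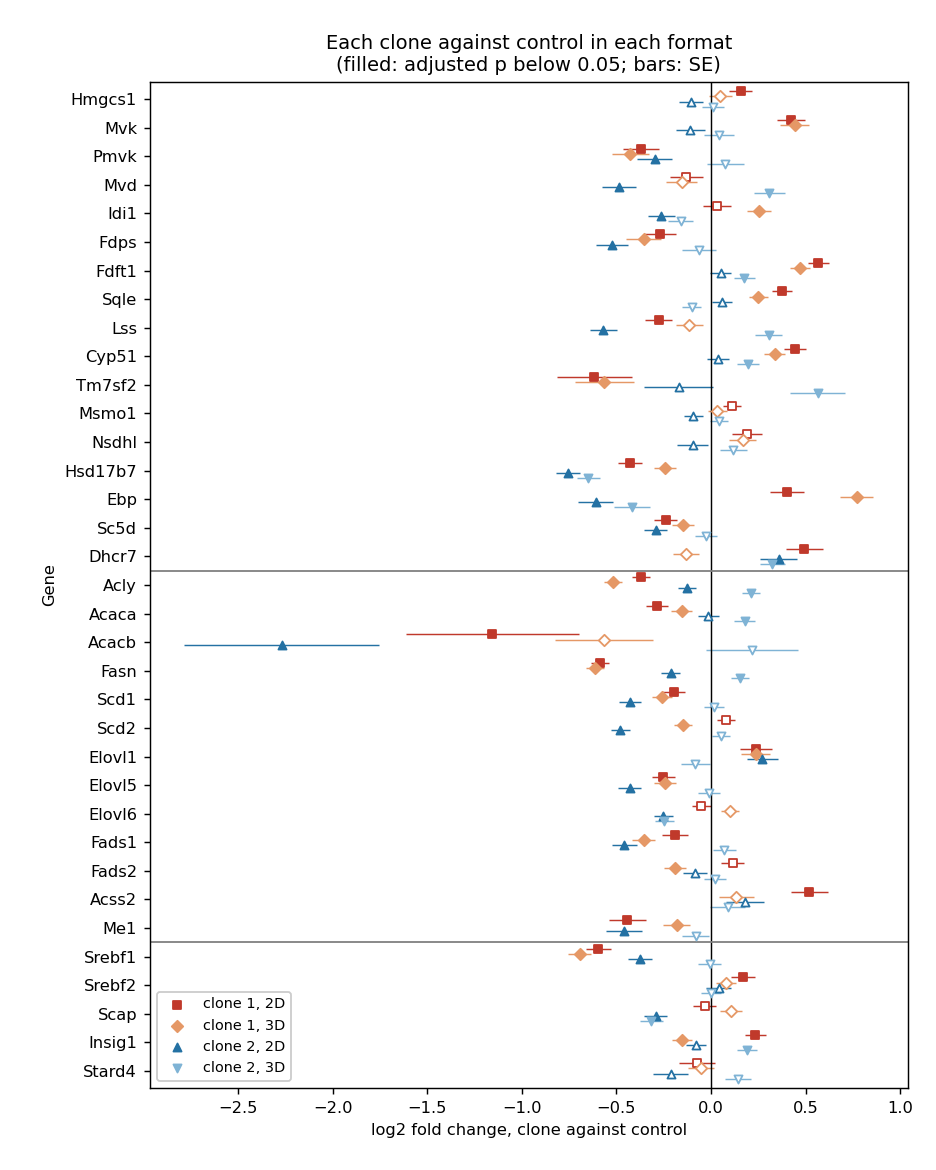
Log2 fold change of c1 (clone 1) and c2 (clone 2) against control (x axis, bars are the SE) in 2D and in 3D for each of the 35 genes (y axis, grouped by arm). Fasn in c1 lies at -0.59 and -0.61, and Ebp lies right of 0 in c1 and left of 0 in c2 in both formats.

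**Figure D4:**
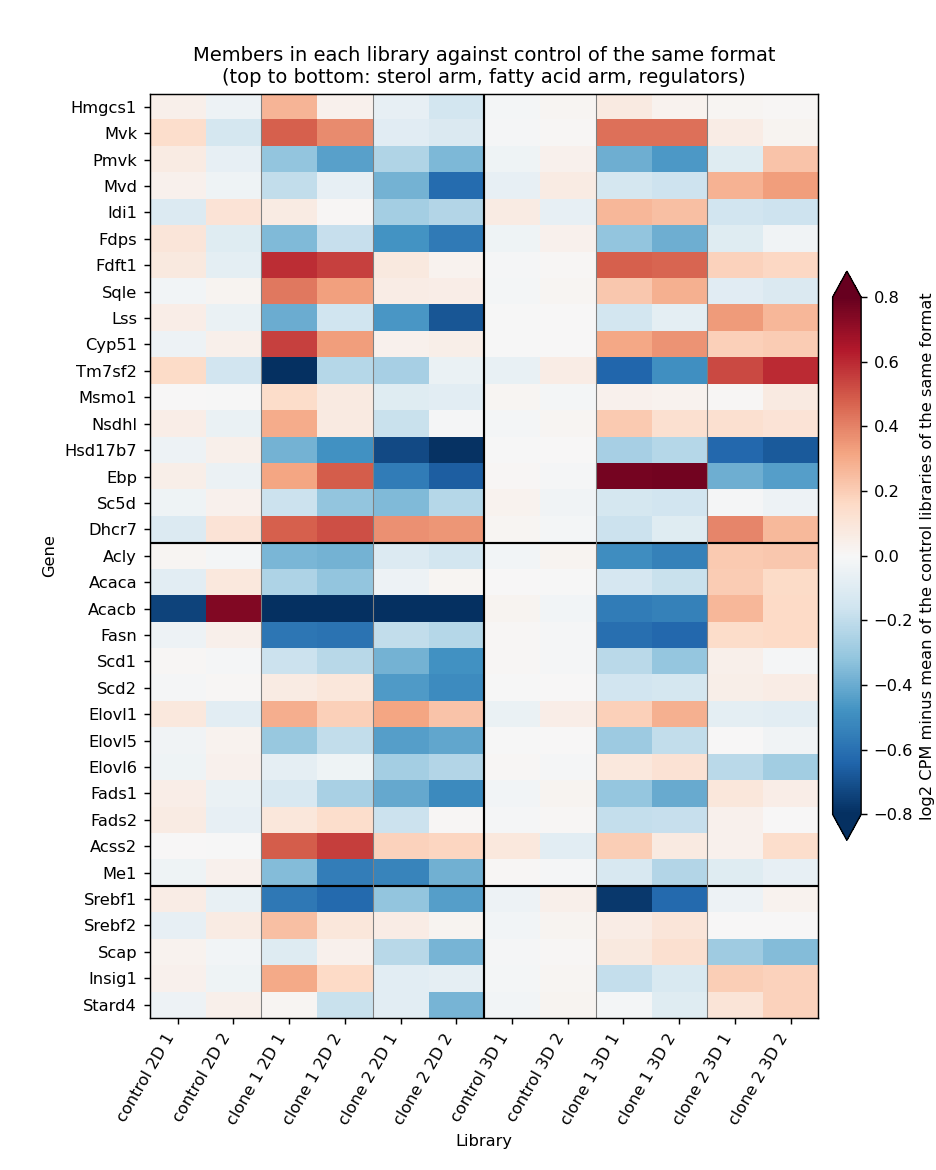
Log2 CPM of each gene (rows) in each of the 12 libraries (columns) minus the mean of the control libraries of the same format, with colours limited to the range of the colour bar, so larger deviations share its end colour. Replicates of a group look alike for most genes, and the 2 replicates of c2 in 2D are low in both arms.

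As the mean of both clones, the knockout in 2D, with 24 calls (35.5% of all genes were called), had 4 sterol enzymes higher and 6 lower and 2 fatty acid enzymes higher and 10 lower, against 17.9% and 17.6% of all genes. In 3D the counts were 3 and 2 and 0 and 4, against 11.5% and 17.4%. No fatty acid enzyme was higher there by edgeR (0 at an unadjusted p under 0.05, and 0 by DESeq2). The mean hides the opposite changes of the clones: Ebp was at -0.10 in 2D with 0.40 in c1 and -0.61 in c2. The p-values of the mean cover the spread of replicate libraries and not that between clones. With 2 single clones against a pool, an effect of the edit and differences between clones cannot be told apart. The largest changes in the 2D mean beside Acacb (-1.71 ± 0.41) were those of Hsd17b7 (-0.59 ± 0.054), Srebf1 (-0.49 ± 0.055) and Me1 (-0.45 ± 0.083). In 3D they were those of Hsd17b7 (-0.45 ± 0.051), Srebf1 (-0.35 ± 0.051) and Fdft1 (0.32 ± 0.047). With chromosomes centred, the 3D values were -0.15 for Hsd17b7, 0.18 for Fdft1 and -0.14 for Srebf1 (adjusted p = 0.0583, no longer a call), and Srebf1 in 2D was at -0.26. Among genes not given above for a group, Lss had 162 and 191 CPM in c1 in 2D, Pmvk 54.3 and 50.1 and Acss2 28.6 and 28.3 in c2 in 2D. In 3D, Hsd17b7 had 69.7 and 71.6 CPM in c1. In c2 in 3D, Fdft1 had 170.0 and 167 CPM, Cyp51 285 and 288, Mvk 37.7 and 36.8, Fads1 98.6 and 96.3 and Scd1 172 and 166. The 10 calls in 3D (28.9% of all genes were called) became fewer when either 3D control library was left out. They became 19 when only 3D libraries were fitted. The shares of all genes called in those fits are not given here, so these counts do not set the 35 genes apart.

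Whether the difference from control depended on format was tested as an interaction, the log2 difference in 3D minus that in 2D. For c2, 6 sterol and 8 fatty acid enzymes and 3 regulators had a higher value in 3D and only Elovl1 (-0.35 ± 0.11, and adjusted p = 0.0672 with chromosomes centred) a lower one, against 7.43% higher and 14.8% lower over all genes. Without Gm26917 and Gm42418 the split over all genes moved from 1022 higher and 2037 lower to 1231 and 1577. The largest tested values were those of Lss at 0.87 ± 0.099 (adjusted p = 5.30e-07), Mvd at 0.79 ± 0.12 (adjusted p = 3.12e-05) and Scd2 at 0.53 ± 0.067 (adjusted p = 2.64e-06), apart from the scarce Acacb at 2.49 ± 0.57 and Tm7sf2 at 0.74 ± 0.23, whose calls depend on single libraries. Fads1 was at 0.53 ± 0.092, Scd1 at 0.45 ± 0.08, Elovl5 at 0.42 ± 0.083, Srebf1 at 0.37 ± 0.087, Fasn at 0.37 ± 0.068 and Acly at 0.34 ± 0.067. With Lss, Mvd and Scd2 these 6 made the 9 genes that kept their call whichever library was left out. The 18 calls (22.2% of all genes were called) became fewer without replicate 1 of the 3D control or replicate 2 of c2 in 3D. The shares of all genes called in those fits are not given here, so the loss does not set these genes apart.

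For c1 the interaction was called for 4 of the 35 genes, all lower, where 7.02% of all genes were called, 3.57% higher and 3.44% lower over all genes (492 and 474, and 694 and 371 without Gm26917 and Gm42418). Higher values at an unadjusted p under 0.05 were found for 3 sterol and 2 fatty acid enzymes, and DESeq2 called none (0). Dhcr7 was at -0.62 ± 0.12 (adjusted p = 0.00117), with c1 above control in 2D, at 27.3 and 28 against 18.1 and 21.1 CPM, and not in 3D, at 67.9 and 71.5 against 77.1 and 75.7. Insig1 was at -0.39 ± 0.076 (adjusted p = 0.00135), above control in 2D at 0.23 and below it in 3D at -0.16. With chromosomes centred it was at 0.041 in 2D (adjusted p = 0.612) and -0.39 in 3D, with an interaction of -0.43. The 3D value of Insig1 against control had an adjusted p of 0.0172, and of 0.0623 with DESeq2's size factors. Scd2 (-0.23 ± 0.067) and Fads2 (-0.30 ± 0.085) were called too, and each lost its call in several alternatives. For the mean of both clones, 4 genes were called (8.01% of all genes were), namely Lss (0.52 ± 0.085), Mvd (0.38 ± 0.10), Dhcr7 (-0.33 ± 0.10) and Acacb (1.54 ± 0.46), against 2.83% higher and 5.18% lower over all genes (389 and 713, and 527 and 459 without Gm26917 and Gm42418). With chromosomes centred, Dhcr7 (adjusted p = 0.0955) and Acacb (0.0602) lost the call. Of these 4, Lss kept its call whichever library was left out.

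The clones also differed from each other. In 2D, c2 was above c1 in 0 and below it in 13 sterol enzymes, and above it in 3 and below it in 7 fatty acid enzymes, against 23.2% higher and 18.4% lower over all genes. The count of 0 by edgeR stood beside 1 sterol enzyme higher at an unadjusted p under 0.05 and 0 by DESeq2. In 3D the counts were 6 and 7 and 9 and 2, against 26.4% and 28.5%. Ebp differed most among the sterol enzymes, at -1.01 ± 0.092 in 2D and -1.19 ± 0.091 in 3D (adjusted p = 2.49e-11), and Mvk, Idi1, Fdft1, Sqle, Cyp51 and Hsd17b7 were lower in c2 in both formats as well. Called lower in both formats were thus 7 of 17 sterol enzymes (41.2%), against 12.7% of all genes. With chromosomes centred, Cyp51 turned to 0.013 in 3D (adjusted p = 0.872), and Hsd17b7 was at -0.13 in 2D (adjusted p = 0.127) and turned to 0.063 in 3D. Fasn, Acly, Acaca and Srebf1, the 4 genes on chromosome 11, were higher in c2 than in c1 in both formats, by 0.37 and 0.77 for Fasn. They were the 4 of 35 genes called higher in both (11.4%), against 13.5% of all genes. With chromosomes centred, none of these 4 passed in 2D, with Acly at -0.031 (adjusted p = 0.653) and Srebf1 at -0.057 (adjusted p = 0.545). Fasn was then at 0.096 in 2D (adjusted p = 0.128), with 0.33 in 3D (adjusted p = 6.61e-06), and Acaca turned to -0.005 and -0.11. Over the 35 genes 26 were called in 2D (41.6% of all genes were) and 28 in 3D (54.9%). Called in opposite directions in the 2 formats were 9 of 35 genes (25.7%), against 3.42% of all genes: Mvd, Fdps, Lss, Scd1, Scd2, Elovl5, Fads1, Fads2 and Insig1, each lower in c2 than in c1 in 2D and higher in 3D.

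Averaged over each arm in each library, the fatty acid arm lay below the sterol arm in c1 in both formats, while in c2 in 2D the gap rested on Acacb. Over all 13 fatty acid enzymes, the mean log2 deviation from control of the same format was -0.171 and -0.187 in c1 in 2D and -0.201 and -0.222 in 3D, where sterol enzymes were at 0.044 and 0.053 and at 0.034 and 0.04. In c2 it was -0.297 and -0.423 in 2D and 0.053 and 0.037 in 3D, where sterol enzymes were at -0.214 and -0.24 and at 0.039 and 0.047. Sterol minus fatty acid was thus 0.215 and 0.24 in c1 and 0.083 and 0.183 in c2 in 2D, beside 0.083 and -0.083 in the 2 control libraries. Without Acacb, a choice made after seeing the data, the fatty acid means were -0.108 and -0.131 in c1 and -0.208 and -0.207 in c2 in 2D, and -0.171 and -0.195 and 0.035 and 0.027 in 3D. The difference between the medians of the arms, sterol minus fatty acid, was 0.308 in c1 in 2D and 0.222 in 3D, where the pooled SD of replicate libraries was 0.042. That SD covers the spread between replicate libraries and not that between clones or among genes. With chromosomes centred the difference was 0.097 and 0.119. In c2 it was 0.081 in 2D, with -0.028 to 0.198 on leaving out single libraries, and -0.01 in 3D.

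**Figure D5:**
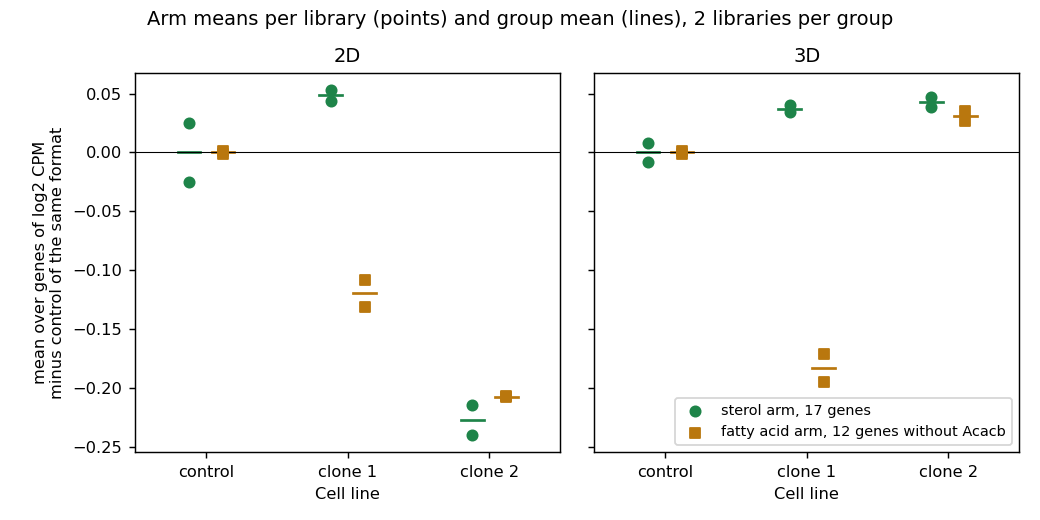
Mean log2 CPM of the sterol arm and of the fatty acid arm without Acacb in each library, minus the mean of the control libraries of the same format (y axis, log2), by group (x axis), with 1 point per library. Points of the fatty acid arm lie below those of the sterol arm in all 4 c1 libraries, and both arms lie near -0.2 in the 2 libraries of c2 in 2D.

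Other genes of lipid metabolism gave context. In control cells, 23 of 51 tested were higher and 23 lower in 3D, where 41.7% and 35.6% of all genes were. Pgd, an NADPH-producing enzyme of the pentose phosphate pathway, rose with Me1, by log2 1.95 ± 0.059, and Tmem97, a sterol-responsive membrane protein that binds Npc1, fell, at -1.93 ± 0.065. Acadl, a dehydrogenase of fatty acid oxidation, rose by 2.02 ± 0.084, and Acat1 and Acsl5, a thiolase and an acyl-CoA synthetase, fell, at -1.47 ± 0.062 and -1.07 ± 0.051. In c1, Agpat2, an acyltransferase of glycerolipid assembly, rose by 0.65 ± 0.066 in 2D and 0.69 ± 0.066 in 3D, and Acsl4 fell, at -0.42 ± 0.061 and -0.85 ± 0.056. In c2, Acsl4 rose by 0.52 ± 0.059 in 2D and 0.37 ± 0.055 in 3D, and Soat1, which esterifies cholesterol, fell, at -0.53 ± 0.064 and -0.94 ± 0.059. Slc25a1, the carrier that exports citrate for Acly, fell in c2 in 2D, at -0.60 ± 0.073 and had an interaction of 0.58 ± 0.099 (adjusted p = 0.000112), the same signs as Acly and Fasn there.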

How the data were processed

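The authors deposited unnormalized counts of reads for each gene symbol, with 1 table per format. The submitters' processing notes name build mm10, Cell Ranger 3.0.0, R 4.1.1, featureCounts, STAR 2.7.9a and FastQC 0.11.9 without their roles, and no strand setting is given in the sources used here. The tables were merged on the symbol and fitted in edgeR 4.0.16 (R 4.3.3). The filter filterByExpr left 13763 genes, TMM factors (trimmed mean of M values) scaled the libraries, and a quasi-likelihood model with 1 mean per group (6 groups) covered all 12 libraries (6 residual degrees of freedom, biological coefficient of variation 4.51%). Unless DESeq2 is named, p-values are two-sided, from that edgeR model, and adjusted by Benjamini-Hochberg over the genes tested, with a threshold of 0.05. CPM values are TMM-scaled, log2 changes are given with their SE, and pairs of CPM or counts are replicates 1 and 2. The script was tested on simulated counts.

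Replicates of every group differed beyond sampling noise (chi-square per degree of freedom 3.54 to 9.63), so none was counted as a duplicate. Same-numbered replicates did not deviate together (correlations -0.045 to 0.022), so numbers were not used to pair samples. Gene positions are from GENCODE M21 (mm10), which placed 98.9% of tested genes. In 1 alternative each chromosome was centred on its own median. Members with stretches of at least 300 bases and 95% identity in other genes (Idi1, Fdps, Fdft1, Acaca, Scd1, Scd2, Elovl6, Me1) are uncertain, and 21 of 35 overlap no other gene's exons; without a stated strand setting, reads from overlapping genes cannot be told apart. Alternatives were DESeq2 1.42.0 (size factors and Wald test), a filter of 10 counts in total, leaving out Gm26917 and Gm42418 (alone, or, chosen after seeing the data, with the mitochondrial genes), a fit per format, a replicate block, members without overlap, regulators placed in the arms, Acacb left out (also chosen after seeing the data), and each library left out. By rule, values in every library are given for the 5 regulators and, in each main comparison, for up to 5 enzymes of each arm with the largest changes past the threshold, and up to 5 other lipid genes per comparison, those with the smallest p, may be named. The 35 genes and all lists were chosen with earlier results of these data known, so no test over a list was made.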

Additional observations from a re-analysis of the deposited data

Results flagged for a closer look

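Differences from control that depended on format, by the interaction test (log2 difference in 3D minus that in 2D, adjusted p under 0.05 over all genes), are listed here as values. For the mean of both clones they were Mvd at 0.38, Lss at 0.52, Dhcr7 at -0.33 and Acacb at 1.54. For c1 they were Dhcr7 at -0.62, Scd2 at -0.23, Fads2 at -0.30 and Insig1 at -0.39. For c2 the sterol enzymes were Pmvk at 0.37, Mvd at 0.79, Fdps at 0.46, Lss at 0.87, Tm7sf2 at 0.74 and Sc5d at 0.27. The fatty acid enzymes of c2 were Acly at 0.34, Acacb at 2.49, Fasn at 0.37, Scd1 at 0.45, Scd2 at 0.53, Elovl1 at -0.35, Elovl5 at 0.42, Fads1 at 0.53 and Me1 at 0.38, and its regulators and carrier were Srebf1 at 0.37, Insig1 at 0.27 and Stard4 at 0.36. The 3 contrasts share the control libraries.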

How the results depend on the processing

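Of 525 gene results (35 genes in 15 comparisons), 312 passed the threshold. Over the alternatives that gave a value, 9673 comparisons with the main value kept the side of the threshold and, where called, the direction, 387 lost the call, 182 gained one and 13 changed direction with a call on at least 1 side. A further 217, 30 of them with chromosomes centred, changed sign with no call on either side and are among the 9673. The 13 came with chromosomes centred, which by construction moves every gene of a chromosome together: Acaca was at 0.078 in the knockout mean in 2D, 0.081 in c1 in 2D, 0.28 in c1 in 3D, and -0.005 and -0.11 in c2 against c1 in 2D and 3D. Acly was at 0.055 in the knockout mean in 3D and -0.031 in c2 against c1 in 2D, Insig1 at -0.14 in the knockout mean in 3D, and Elovl1 at -0.21 and Srebf1 at -0.057 in c2 against c1 in 2D. In c2 against c1 in 3D, Cyp51 was at 0.013, Msmo1 at -0.12, and Hsd17b7 at 0.063. Etv4, the targeted gene and not among the 35, turned to -0.084 there as well.

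Counts of called members moved by over 1.5 times as follows. The knockout mean in 3D (10) became 19 in the 3D libraries alone and 5 to 11 on leaving out single libraries. The interaction of the mean (4) became 8 without Gm26917 and Gm42418, also without mitochondrial genes, 2 with the replicate block, and 1 to 5 on leaving out libraries. With libraries left out, c1 in 3D (23) ranged from 15 to 25, c2 in 3D (14) from 7 to 15, the interaction of c1 (4) from 2 to 4 and that of c2 (18) from 10 to 18. The block moved no other count by over 1.5 times. The cause was not tested.

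The difference of the arms' medians, sterol minus fatty acid, was 0.026, 0.125, 0.097, 0.119 and 0.04 with chromosomes centred in the knockout mean in 2D and 3D, c1 in 2D and 3D, and c2 in 3D, against 0.145, 0.195, 0.308, 0.222 and -0.01, and it was 0.004 in the interaction of c2, against -0.21. Without overlapping members it was 0.271 in the knockout mean in 2D, 0.419 in c1 in 2D, -0.07 in c2 in 3D and -0.546 for 3D against 2D in control, where the main value was -0.253, -0.306 with regulators in the arms and -0.209 without Acacb. With regulators in the arms it was -0.061 in the interaction of the mean (-0.015) and 0.143 in c2 in 2D (0.081). Leaving out libraries gave 0.145 to 0.252 for the knockout mean in 2D, -0.379 to -0.199 for 3D against 2D in control, -0.078 to 0.015 for the interaction of the mean, 0.254 to 0.322 for c1 in 2D, -0.028 (without replicate 2 of the 2D control) to 0.198 for c2 in 2D and -0.245 to -0.115 for the interaction of c2. Acacb is limited by depth, with 2 to 46 counts in the 2D libraries.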
